A study of Mus musculus with 16 samples.

Results

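Microglia of the olfactory bulb (OB) of wild-type (WT) mice were profiled by bulk RNA sequencing in 8 of the 16 libraries of the series, and the transcriptome of the isolated cells is described here by the level of each gene, its spread between the libraries and the genes that moved with it. A gene was a member when 4 or more of the 8 WT libraries held 5 or more of its counts, which kept 18150 of the 57010 genes in the table and 99.873% of the counts. Just inside this rule, 574 genes reached 5 counts in exactly 4 libraries (median of their mean level 0.393 CPM, counts scaled to a library of 1000000), and just outside it 652 genes did so in 3 libraries (0.32 CPM). The libraries were labelled WT_f1 to WT_f4 for 4 females and WT_m1 to WT_m4 for 4 males. The WT mice were C57BL/6 J animals aged 2 months, with no transgene or treatment named in the labels, and the 8 APP-NL-G-F libraries were not analysed here. Mice were perfused with PBS, the OB was digested with papain, and cells were pulled out with magnetic beads against CD11b, an integrin subunit that is carried by microglia and also by border macrophages, monocytes and neutrophils. The sources used here do not say whether a library is 1 mouse or a pool, so the p-values measure the spread between these samples, which may be partly technical.

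Microglia are the resident macrophages of the brain parenchyma. They depend on signalling through the Csf1 receptor and on TGF-beta, and at rest they express a set of homeostatic genes (purinergic receptors, the fractalkine receptor and lysosomal enzymes) that separates them from macrophages of the blood and the brain borders. They sense tissue damage through receptors that signal over the adaptor Tyrobp, tag material with complement, and engulf and digest cells and synapses. The OB receives new neurons throughout life and the axons of olfactory sensory neurons, and its microglia clear cells and axons that are lost.

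Between 9052932 and 18117286 counts were assigned per library (median 11513505.5), so that 3 counts, the most that a count of 0 allows, correspond to 0.166 to 0.331 CPM. For all CPM values the library total was multiplied by a TMM factor (0.9413 to 1.047), and floors cover counting error only. Mitochondrial ribosomal RNA took 14.05% to 19.72% of the counts and protein-coding genes 72.78% to 78.96%. Log2 CPM values of the kept genes correlated between libraries with r of 0.964 to 0.987. 3 libraries stood apart: WT_f1 and WT_f2 had scores of -38.5 and -53.4 on the first principal component, against -7.17 to 33 in the other 6, and WT_m3 held 7.96% nuclear ribosomal RNA, against 1.673% to 3.013% in the others. For the main calls and lists the value without WT_f1 and WT_f2 is given as well, and a value given alone may also have moved. The sex labels were checked first. Xist, the RNA that coats the inactive X chromosome, measured 556.5, 534.9, 597.7 and 678.8 CPM in WT_f1 to WT_f4 and at most 0.4373 CPM in a male library, and the Y-linked helicase gene Ddx3y had no count in the female libraries and 87.5, 105.5, 96.98 and 78.84 CPM in WT_m1 to WT_m4. All 8 libraries matched their labelled sex.

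The labelled cell type was checked against 3 defining markers, and all 3 were among the most abundant genes. P2ry12, the purinergic receptor that guides microglial processes to ATP, measured 1639, 1452, 1395 and 1378 CPM in the female libraries and 1547, 1660, 1570 and 1514 CPM in the male ones, with a mean of 1519 CPM and rank 44 of 18150. Cx3cr1, the fractalkine receptor, measured 3167, 3044, 2980 and 2853 CPM in females and 3096, 3333, 2940 and 3023 CPM in males (mean 3055, rank 16). Tmem119, a membrane protein of microglia that border macrophages lack, measured 683.1, 608.8, 609.7 and 574.5 CPM in females and 596.1, 679.7, 524.9 and 587.9 CPM in males (mean 608.1, rank 144). Female and male values overlapped for all 3 genes.

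The 20 homeostatic microglia genes formed the most abundant list, and all 20 were kept. Their median level was 1038 CPM, and their median rank stood at the 99.6 percentile of the kept genes. Cst3, a secreted inhibitor of cathepsins, was the most abundant protein-coding gene (6538 CPM, rank 6), and Csf1r, the receptor on which microglia depend, had 5594 CPM (4922 to 6219 over the libraries). Sparc, a secreted matrix protein, had 2723 CPM and Fcrls, an Fc receptor-like gene of mouse microglia, 1545 CPM. Sall1, the transcription factor that keeps microglia apart from other macrophages, had a mean of 788.7 CPM with a range of 722.6 to 842.6, rank 97. The least abundant member was P2ry6, the receptor for UDP, at 93.56 CPM.

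**Figure D1:**
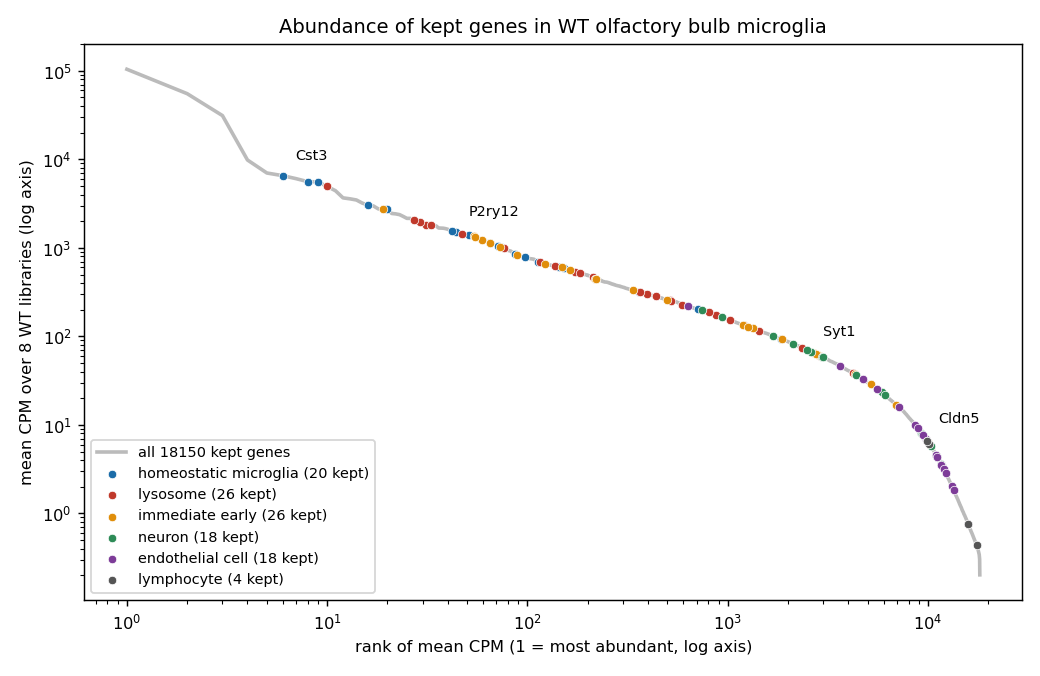
Mean CPM over the 8 WT libraries against the rank of each kept gene, both on log axes, with the members of 6 gene lists as coloured points and all 18150 kept genes as the grey line. Homeostatic and lysosomal genes lie at the top (Cst3 at rank 6 and P2ry12 at rank 44), while the neuronal gene Syt1 lies at rank 2604 and the endothelial gene Cldn5 at rank 9779.

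Few genes took a large share of the counts. The 10 genes of highest mean CPM over all libraries held 23.54% ± 2.02 (SD, n = 8) of the counts of a library. The share was 37.29% ± 1.85 for the first 100 genes of that order, 63.41% ± 1.23 for 1000 and 90.38% ± 0.456 for 5000. Ribosomal RNA set the first of these: outside ribosomal RNA genes, the 10 most abundant genes held 7.064% ± 0.129. Among the 10 genes of highest mean CPM were the ribosomal RNAs mt-Rnr2 (104100 CPM), mt-Rnr1 (55170 CPM) and Rn18s-rs5 (31200 CPM), the nuclear RNAs Malat1 (9829 CPM, 6760 to 12380) and Rn7sk (7008 CPM), Cst3, the actin gene Actb (6047 CPM), Csf1r and Ctss (4933 CPM), the cathepsin that works at neutral pH. Rn18s-rs5 measured 79280 CPM in WT_m3 and 16950 to 29830 CPM in the other 7 libraries.

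Levels were compared between genes per kb of exon length, in CPM per kb. The length was that of all annotated exons of a gene merged, which can exceed the length of its main transcript. Ranks on this scale therefore depend on the annotation as well as on the counts. On that scale Cst3 stood highest of the protein-coding genes with 3616 CPM per kb, and mitochondrial genes came next, mt-Co1 with 2862 CPM per kb, mt-Cytb with 2795 and mt-Nd1 with 2528. Others of the 15 highest were Actb, the ribosomal protein gene Rplp1 (1848 CPM per kb), mt-Nd5, Tmsb4x (1432 CPM per kb), which encodes an actin-binding peptide, mt-Nd2, C1qa (1110 CPM per kb), Ctss (929.9 CPM per kb), mt-Nd4, Apoe (884.5 CPM per kb) and Jun (854.5 CPM per kb). Csf1r was the 16th at 759.9 CPM per kb. Tyrobp, the adaptor of Trem2, was at 463.4 CPM per kb and Trem2 itself at 60.23 CPM per kb, a gap that depends on their merged exon lengths.

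The kept genes were mostly protein-coding. Of the 18150 kept genes 13735 (75.7%) were protein-coding with a median of 16.4 CPM, 2044 (11.3%) were lncRNA genes with a median of 1.27 CPM and 1071 (5.9%) were unproven transcripts of the class TEC with a median of 1.13 CPM. The median over all kept genes was 8.75 CPM, and 8662 genes reached a mean of 10 CPM.

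Receptors and lysosomal genes followed the homeostatic genes in level, and complement genes ranged widely. All 25 genes of the list of receptors and adaptors were kept with a median of 297.9 CPM. Itgb5, an integrin subunit, was the most abundant at 1670 CPM, and Itgam, which encodes the CD11b used for the isolation, measured 477.2 CPM. Tyrobp had 316 CPM and Trem2 297.9 CPM. The growth factor receptor subunit Csf2ra was lowest at 30.75 CPM. The 14 complement genes had a median of 50.45 CPM. The 3 subunits of C1q, the recognition protein of the classical complement pathway, were close to each other in CPM (C1qa 1787, C1qb 1622, C1qc 1895). Of the downstream components C3 had 27.77 CPM and C2 0.5375 CPM, and C4b 63.45 CPM. All 26 lysosome genes were kept with a median of 310.1 CPM, led by Ctss, Lgmn (an endopeptidase, 2041 CPM), Ctsd (1965 CPM), Ctsb (1825 CPM), Psap (1798 CPM) and Mpeg1 (1452 CPM). All 24 engulfment genes were kept with a median of 109.7 CPM, from the lipid exporter Abca1 (1209 CPM) and the receptors Stab1 (779.2 CPM) and Mertk (584.9 CPM) down to the adaptor Gulp1 (0.5703 CPM). All 15 myeloid transcription factors were kept (median 192.4 CPM), with Maf at 601.6, Mef2a at 578, Mef2c at 548.7, Irf8 at 343.8 and Spi1 at 182.8 CPM.

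Genes named for disease-associated microglia differed widely in level in these young WT animals. Of the 24 listed genes 23 were kept, with a median of 62.74 CPM. Apoe, the lipid carrier, was high in every library, at 3385, 4304, 3670 and 3763 CPM in females and 4072, 3625, 3353 and 2470 CPM in males, and Ctsb, Fth1 (1372 CPM) and B2m (1005 CPM) were of similar rank. Several genes that mark microglia around plaques lay below the list's median: Lpl (37.72 CPM), Itgax (28.38 CPM), Cst7 (11.76 CPM), Gpnmb (9.453 CPM), Spp1 (7.953 CPM) and Lgals3 (7.318 CPM). Of these only Spp1 and Lgals3 were below the median of all kept genes (8.75 CPM). The C-type lectin Clec7a was the list's median gene, and Apoe and Ctsb lay far above it. Interferon-stimulated genes were lower still, with 23 of 24 kept and a median of 7.901 CPM.

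Markers of other cells were present at lower levels. In bulk samples fewer cells of a type and less RNA per cell cannot be told apart. Border macrophage genes were all kept (16 of 16, median 18.12 CPM), led by Stab1 and Maf, which microglia also express, and by Mrc1, the mannose receptor, at 250.7 to 393.7 CPM. Cd163, the haemoglobin scavenger receptor, measured 114.4, 89.8, 67.37 and 69.89 CPM in females and 102.9, 101.6, 51.72 and 43.28 CPM in males. WT_m3 and WT_m4 had the lowest values. Monocyte genes were kept in 13 of 14 cases with a median of 1.401 CPM, Ccr2 with 17.76 and Ly6c2 with 0.345 CPM. Neutrophil genes were kept in 9 of 14 cases (median 1.552 CPM), and Ly6g had at most 2 counts and Mpo at most 16 counts in a library. Of the 15 lymphocyte genes 4 were kept, and Cd3e (at most 3 counts), Cd79a (at most 2) and Ms4a1 (at most 3) were not. Of the 10 red blood cell genes 1 was kept. Hbb-bs had at most 19 counts and Hba-a1 at most 11 counts in a library of these perfused animals.

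Neurons and glia of the OB gave more counts than blood cells. All 18 neuron genes were kept with a median of 30 CPM, and their summed level was 763.3 to 999.6 CPM in female and 792 to 1078 CPM in male libraries. Syt1, the calcium sensor of synaptic vesicles, measured 52.36, 47.55, 67.58 and 69.13 CPM in females and 79, 64.56, 78.07 and 78.34 CPM in males. The OB inhibitory neuron list kept 15 of 16 genes (median 10.31 CPM) and the neuroblast list 11 of 11 (median 21.5 CPM), of which Sox4 at 140.2 CPM and Stmn1 are not confined to neuroblasts, while Dcx, the marker of migrating neuroblasts, had 16.05 CPM. The OB projection neuron list kept 9 of 12 genes (median 2.193 CPM). All 14 astrocyte genes were kept (median 27.66 CPM), with Slc1a2, a glutamate transporter, at 315.4 CPM. All 14 oligodendrocyte genes (median 3.476 CPM), all 10 precursor genes (median 3.587 CPM) and 11 of 12 genes of the olfactory ensheathing cell list (median 7.331 CPM) were kept. Endothelial genes were kept in 18 of 18 cases with a median of 6.8 CPM, mural cell and fibroblast genes in 14 of 16 (median 4.388 CPM) and ependymal and choroid genes in 3 of 8 (median 0.9711 CPM), and Ttr, the transport protein of the choroid plexus, had at most 1 count in a library. The housekeeping list, for comparison, kept 29 of 30 genes with a median of 140.4 CPM, and the circadian clock list 16 of 18 with a median of 17.64 CPM.

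The spread between libraries was small for abundant genes. It was measured as the SD of log2 CPM over the 8 libraries (prior count 2). The median SD was 0.24 over all kept genes and 0.227 with the sex means removed. It fell from 0.546 below 1 CPM to 0.343 between 1 and 10 CPM, 0.133 between 10 and 100 CPM and 0.0977 between 100 and 1000 CPM, and was 0.113 in the 77 genes at 1000 CPM or more. The median coefficient of variation in these 5 bands was 45.7%, 24.8%, 9.28%, 6.75% and 8.06%, of which counting alone would give 36.8%, 15.6%, 5.28%, 2.15% and 0.688%. Below 1 CPM counting therefore gave most of the spread, and above 100 CPM it gave little. Of the 8662 genes at 10 CPM or more 190 (2.19%) had an SD above 0.5.

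**Figure D2:**
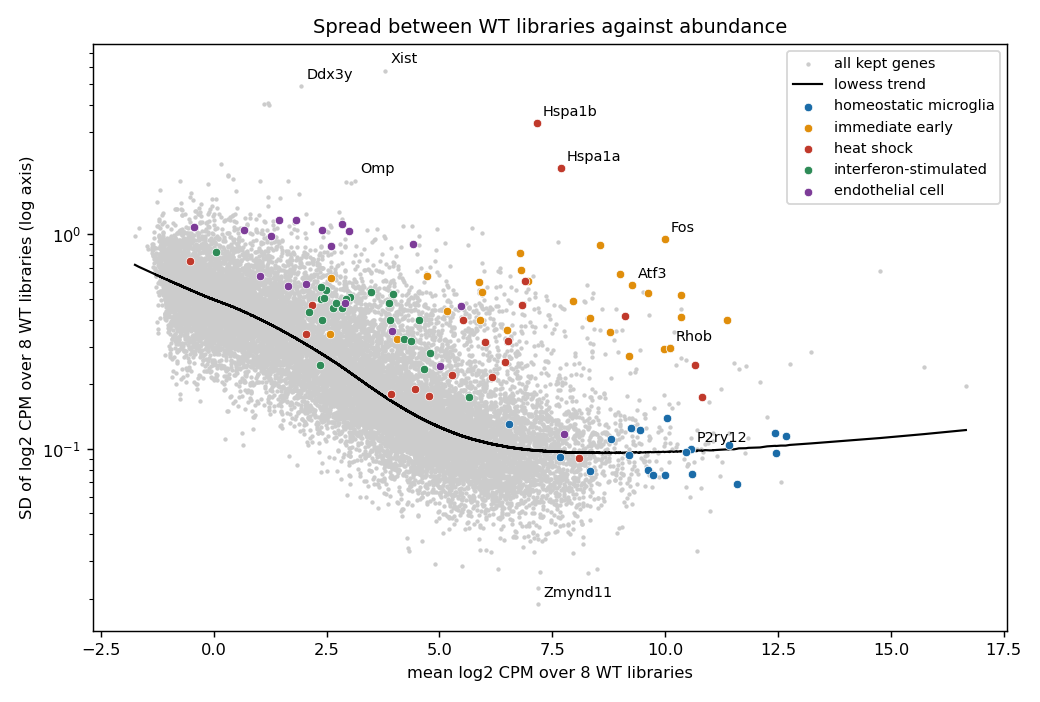
SD of log2 CPM over the 8 WT libraries (log axis) against mean log2 CPM for all kept genes (grey), with a lowess trend and the members of 5 lists in colour. Homeostatic genes lie along the trend with SDs near 0.1 (P2ry12 0.1), while Hspa1b (SD 3.29), Hspa1a (2.04), Fos (0.954) and Atf3 (0.581) lie far above it and Zmynd11 (0.0189) far below.

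Identity genes had about the usual spread for their level, and genes induced by stimulation a larger one. To compare genes of different level, the SD was set against the lowess trend and given as the log2 ratio of SD to trend, so that 0 is the usual spread at that level; the median over all kept genes was -0.0051. The median of the homeostatic list was 0.0137, of the lysosome list -0.0246, of the complement list 0.0276, of the engulfment list 0.0495, of the transcription factors 0.104, of the receptors 0.147 and of the housekeeping list -0.229. Cx3cr1 had an SD of 0.0688 and Lgmn of 0.0516. Larger values were found for the lists of disease-associated microglia (0.426), proliferation (0.846), antigen presentation (0.883), interferon-stimulated (1.03), heat shock (1.16), early inflammatory (1.82) and immediate early genes (2.17), and all 26 immediate early genes lay above the trend, against 49.6% of all kept genes. With the sex means removed the immediate early list was at 1.27 and the early inflammatory list at 1.37. Of the lists of other cells, endothelial (1.32), astrocyte (1.47), mural and fibroblast (1.13), olfactory ensheathing cell (0.877) and border macrophage genes (0.821) lay above the trend, and neuron genes at 0.364. Leaving out WT_f1 and WT_f2 gave medians of 0.263 for the astrocyte, 0.683 for the endothelial, 0.823 for the mural and fibroblast and 0.607 for the olfactory ensheathing cell list, and 1.92 for the immediate early list.

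The 15 genes with the widest spread for their level at 10 CPM or more fell into a few kinds. Xist and the 4 Y-linked genes Ddx3y, Eif2s3y, Uty and Kdm5d separate the sexes. Hspa1b and Hspa1a encode the inducible chaperone Hsp70, and Fos, Fosb and Klf4 are immediate early genes. Gm55073 and Gm54867 belong to ribosomal RNA and were highest in WT_m3 at 264.6 and 788.4 CPM. Reln and Cdhr1 mark projection neurons of the OB, and Omp marks mature olfactory sensory neurons, whose axons end in the OB. Omp measured 61.22 and 59.98 CPM in WT_f1 and WT_f2 and 2.905 to 7.32 CPM in the other 6 libraries. Reln went the other way, at 19.88 and 21.8 CPM in WT_f1 and WT_f2 and 58.52 to 110.1 CPM in the others. The 15 tightest genes were Zmynd11, Gatd3a, Heatr6, Trip11, Polr3c, Rcor1, Tmem183a, Iws1, Farsa, Ppp3ca, Nsd1, Atrx, B3glct, Mcts1 and Mocs1. Zmynd11, a reader of histone methylation, lay between 143.2 and 148.5 CPM in all 8 libraries (SD 0.0189), and Nsd1, a histone methyltransferase, between 308.6 and 323.5 CPM.

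Outside the sex genes, the heat shock list held the 2 genes of widest range. Hspa1b measured 4.404 CPM in WT_f1 and 3.163 CPM in WT_f2, but 283.7 and 344.2 CPM in WT_f3 and WT_f4 and 710, 1245, 406.5 and 345.3 CPM in WT_m1 to WT_m4. Hspa1a measured 21.9, 25.64, 284.1 and 328.1 CPM in females and 663.4, 1076, 339.9 and 274.1 CPM in males. WT_f1 and WT_f2 were thus lowest and WT_m1 and WT_m2 highest for both genes. Hsp90aa1, an inducible Hsp90, had 463.8, 468, 529.7 and 553.5 CPM in females and 853.8, 884.2, 440.4 and 435.3 CPM in males, with WT_m1 and WT_m2 again highest but WT_f1 and WT_f2 not lowest. Hsph1, a nucleotide exchange factor of Hsp70, had 76.14 to 113.3 CPM in 6 libraries and 203.9 and 248.5 CPM in WT_m1 and WT_m2. Hsf1, the transcription factor that induces these genes, had a mean of 27.48 CPM and an SD of 0.176. The median r between 2 genes of the list over the 8 libraries was 0.413 and rose to 0.695 without WT_f1 and WT_f2.

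Promoters of selected heat shock, immediate early and inflammatory genes are shown, picked by hand with a motif each holds and not by rank of spread. The 2 Hsp70 genes are near-identical copies, so that reads of the stretches they share cannot be told apart. How such reads were counted is not stated in the sources used here. Some immediate early and inflammatory genes carry known response elements in their promoters. Each sequence is the 250 bases before the annotated start in GRCm39, written in the direction of transcription. Capitals mark the motif named with each gene. The heat shock element of 2 units (GAANNTTC or TTCNNGAA) is marked in Hspa1a (chr17:35191133-35191382, minus strand) and Hspa1b (chr17:35178215-35178464, minus strand), the half-site of the cyclic AMP response element (TGACG, or CGTCA on the other strand) in Fos (chr12:85520408-85520657, plus strand), the full element (TGACGTCA) in Ier2 (chr8:85389484-85389733, minus strand) and the kappa B site in Nfkbia (chr12:55539433-55539682, minus strand), the gene of the NF-kB inhibitor.
Hspa1a: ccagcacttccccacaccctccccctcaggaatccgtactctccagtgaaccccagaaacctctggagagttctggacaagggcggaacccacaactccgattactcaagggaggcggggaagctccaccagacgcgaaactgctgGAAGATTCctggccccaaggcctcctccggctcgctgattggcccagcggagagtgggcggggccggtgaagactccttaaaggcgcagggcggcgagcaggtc
Hspa1b: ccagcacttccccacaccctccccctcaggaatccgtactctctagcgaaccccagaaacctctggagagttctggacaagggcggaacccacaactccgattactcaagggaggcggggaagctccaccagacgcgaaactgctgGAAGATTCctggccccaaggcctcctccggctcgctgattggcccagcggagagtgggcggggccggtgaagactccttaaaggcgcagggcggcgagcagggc
Fos: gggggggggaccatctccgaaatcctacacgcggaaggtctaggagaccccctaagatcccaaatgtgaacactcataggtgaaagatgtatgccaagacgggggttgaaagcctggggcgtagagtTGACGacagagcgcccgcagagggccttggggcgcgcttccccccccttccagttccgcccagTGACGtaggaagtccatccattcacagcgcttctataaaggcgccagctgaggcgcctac
Ier2: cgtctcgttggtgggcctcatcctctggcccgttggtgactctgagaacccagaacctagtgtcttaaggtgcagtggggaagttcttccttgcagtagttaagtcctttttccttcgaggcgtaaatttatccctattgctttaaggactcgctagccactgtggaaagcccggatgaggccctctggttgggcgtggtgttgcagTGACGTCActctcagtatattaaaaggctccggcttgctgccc
Nfkbia: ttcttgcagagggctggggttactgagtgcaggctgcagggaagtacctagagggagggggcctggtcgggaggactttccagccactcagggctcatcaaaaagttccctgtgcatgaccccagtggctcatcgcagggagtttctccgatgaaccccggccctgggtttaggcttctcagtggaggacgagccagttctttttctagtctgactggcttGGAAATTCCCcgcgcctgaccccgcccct

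The Hspa1a and Hspa1b windows share 247 of 250 bases (98.8%), and both hold the element at -104 to -97 from the start. Over both strands, the heat shock element of 2 units was found in the 250 bases of 8 of 20 heat shock genes (40%), 6 of 19 homeostatic genes (31.6%), 1 of 26 immediate early genes (3.85%) and 10.9% of the 13735 kept protein-coding genes. The 3-unit element (GAANNTTCNNGAA or TTCNNGAANNTTC), each match of which also contains the shorter one, was found in 2 heat shock genes and 0.379% of all. The full cyclic AMP response element was found in 5 of 26 immediate early genes (19.2%) against 2.04% of all, and its half-site, which the full element contains, in 15 of 26 (57.7%) against 22.3%. In Fos the half-sites lay at -123 to -119 and -60 to -56, and in Ier2 the full element at -43 to -36. The CArG box was found in 2 immediate early genes (7.69%) against 1.22%, and the kappa B site in 9 of 26 early inflammatory genes (34.6%), 4 of 26 immediate early genes (15.4%) and 4.55% of all. These counts describe letters and not binding, and the motifs were chosen after the expression values were seen.

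Immediate early genes were abundant in every library. All 26 were kept with a median of 296.6 CPM, and their median rank was at the 97.7 percentile. All cells were digested and sorted before RNA was taken. The part of the isolation in these levels, and in those of heat shock and early inflammatory genes, was not tested. Jun, an AP-1 subunit, measured 3568, 3895, 2958 and 3081 CPM in females and 1990, 2073, 1939 and 2296 CPM in males. Its partner Fos measured 2402, 2587, 1242 and 1311 CPM in females and 668.8, 446, 630.8 and 609.1 CPM in males. Every female library lay above every male library for both genes, and within females WT_f1 and WT_f2 lay above WT_f3 and WT_f4. The zinc finger factor Egr1 had 1365 CPM on average, the mRNA-destabilising protein gene Zfp36 1338 CPM and Btg2 832.8 CPM. The neuronal activity genes Arc (17 CPM) and Npas4 (6.39 CPM) were low. Not all members followed Fos. Nr4a1, a nuclear receptor, measured 81.1 and 71.28 CPM in WT_f1 and WT_f2, 218.5 and 224.5 CPM in WT_f3 and WT_f4 and 96.84 to 139 CPM in males, and Gadd45b had the same order of groups with 34.07 and 34.45, then 109.7 and 88.67, and 52.04 to 76.4 CPM in males.

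Early inflammatory genes were also measured in every library, with 26 of 26 kept and a median of 112.1 CPM. Nfkbia (657.6 CPM), Tnfaip3 (544.8 CPM), an inhibitor of NF-kB, Nfkbiz (498.7 CPM) and the chemokines Ccl3 (479.8 CPM) and Ccl4 (385.9 CPM) were highest, while Il1b had 28.85 CPM and Il6 1.668 CPM. Several of these genes were highest in WT_f3 and WT_f4. Tnf measured 111.5, 90.93, 235.2 and 201.5 CPM in females and 103.1, 101.2, 106.1 and 120.9 CPM in males. Cd83, a surface marker of activation, measured 201.2, 216.1, 539.2 and 561.9 CPM in females and 320.9 to 375.9 CPM in males, so that WT_f1 and WT_f2 were below and WT_f3 and WT_f4 above all males. Il1b followed the same order, with 13.95 and 19.2 CPM in WT_f1 and WT_f2, 40.28 and 57.93 CPM in WT_f3 and WT_f4 and 21.14 to 29.19 CPM in males.

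**Figure D3:**
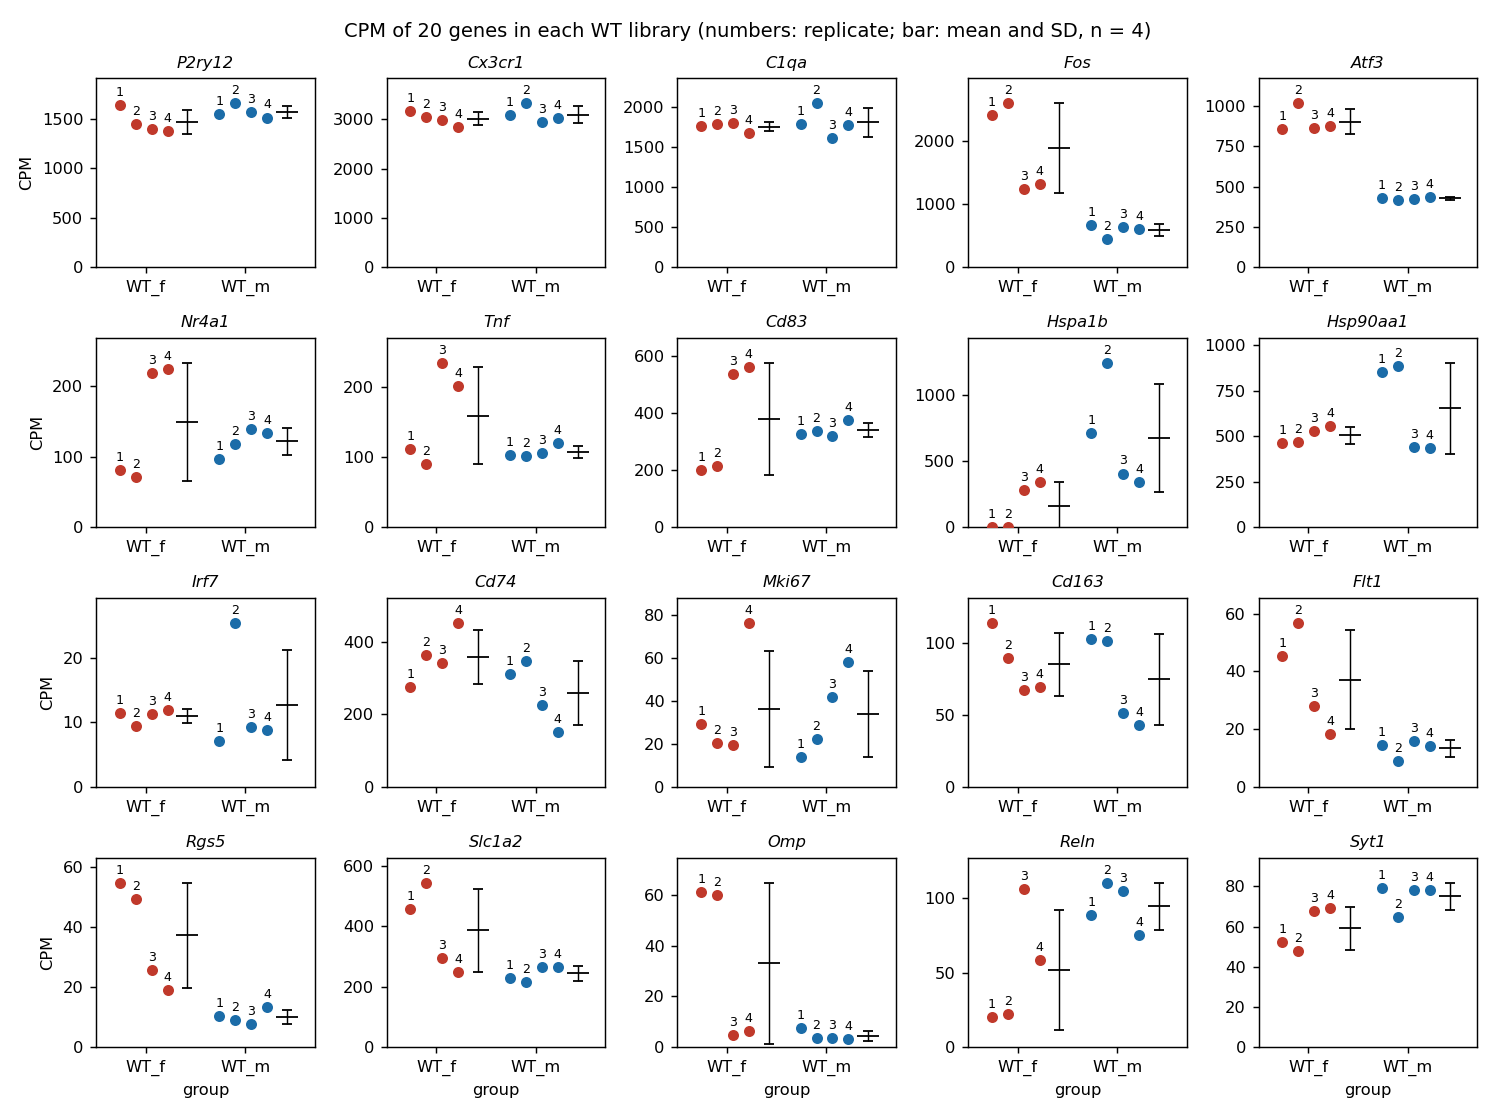
CPM of 20 genes in each of the 8 WT libraries (red, females; blue, males; the number beside a point is the replicate, and the bar at the right of each group is the mean and SD of 4 libraries, drawn from 0 upward for Hspa1b in females). P2ry12, Cx3cr1 and C1qa vary little, Fos and Atf3 separate the sexes, and Nr4a1, Tnf, Cd83, Hspa1b, Omp and Reln separate WT_f1 and WT_f2 from WT_f3 and WT_f4.

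Other genes of large spread differed in which libraries were high or low. The interferon score (mean log2 CPM of the list) ran from 2.69 in WT_m1 to 3.92 in WT_m2, and Irf7, the master regulator of the interferon response, measured 25.47 CPM in WT_m2 and 7.151 to 11.87 CPM in the others. C3 was also highest in WT_m2 at 68.81 CPM, against 10.62 to 36.39 CPM elsewhere. For genes of MHC class II WT_m4 was lowest: Cd74, the invariant chain, had 150.3 CPM there and 226.1 to 452.4 CPM elsewhere, and H2-Aa 33.96 CPM there and 70.19 to 130.4 CPM elsewhere. WT_f4 was highest for both. Proliferation genes were low (20 of 20 kept, median 4.702 CPM), and Mki67, a marker of cycling cells, measured 29.36, 20.45, 19.45 and 76.63 CPM in females and 13.88, 22.28, 41.88 and 58.41 CPM in males. Top2a, a topoisomerase of dividing cells, was likewise highest in WT_f4 at 55.66 CPM and lowest in WT_m1 at 13.29 CPM. The circadian clock list had a median SD of 0.272, with 0.0744 for Clock and 0.14 for Arntl, the 2 partners of the activating arm.

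Co-variation was described by Pearson's r of log2 CPM over the 8 libraries. Correlations over 8 points that share library and depth are given as a description and carry no test. The median r between 2 kept genes was -0.003. It was above 0.5 within 16 lists, among them astrocyte (0.887), endothelial (0.866), interferon-stimulated (0.741), mural and fibroblast (0.736), proliferation (0.721), immediate early (0.68), early inflammatory (0.657), lysosome (0.615), olfactory bulb inhibitory neuron (0.601), homeostatic (0.579) and antigen presentation genes (0.544). Part of these values was the difference between the sexes or the 2 libraries apart. With the sex means removed the median r of the immediate early list was 0.0346, and without WT_f1 and WT_f2 it was 0.844. The early inflammatory list was at 0.456 and 0.851 in these 2 settings, the endothelial list at 0.634 and 0.684, the mural and fibroblast list at 0.377 and 0.557 and the astrocyte list at 0.838 and 0.597. The homeostatic list was at 0.671 and 0.696, the lysosome list at 0.653 and 0.742, the interferon list at 0.813 and 0.823 and the proliferation list at 0.761 and 0.783. WT_m2, which had the highest lysosome score, carried part of the lysosome value: without it the median r of that list was 0.254. Genes of the lists for circadian clock (-0.0224), monocytes (0.00518), neuroblasts (0.036), engulfment (0.106), complement (0.147), neurons (0.157) and disease-associated microglia (0.157) did not move together in this measure.

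**Figure D4:**
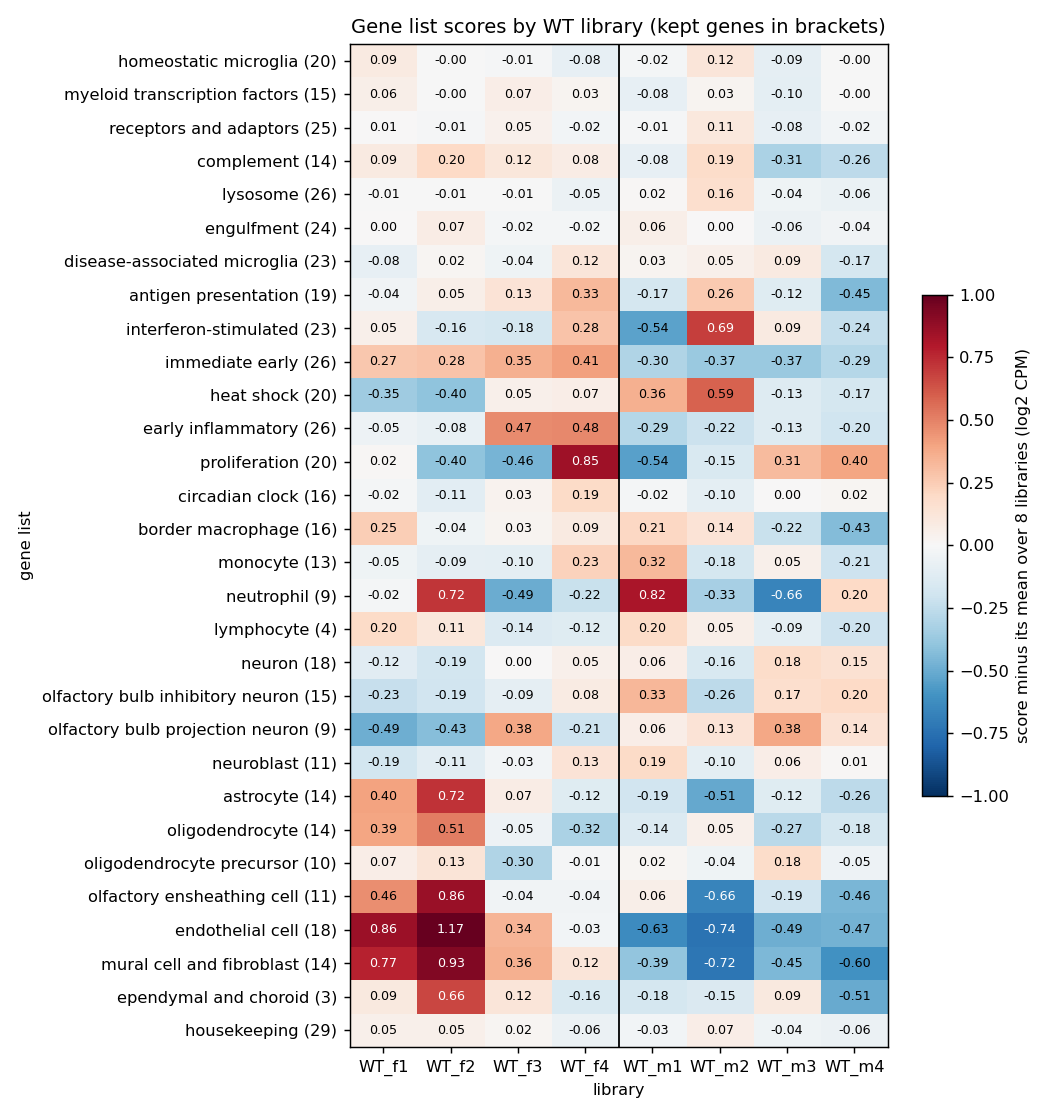
Score of each gene list (mean log2 CPM of its kept genes) in the 8 WT libraries as the difference from the list's mean over the libraries, in log2 CPM, with the number of kept genes in brackets and a line between females and males. Immediate early scores are high in all 4 females (7.84 to 7.98, against 7.2 to 7.28 in males), heat shock scores are highest in WT_m1 and WT_m2 (6.36 and 6.59), and endothelial scores are highest in WT_f1 and WT_f2 (3.63 and 3.94).

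The first principal component held 35.4% of the variance (34.9% over autosomal genes) and the second 15.1%. On the first, WT_f2 (-53.4) and WT_f1 (-38.5) lay at one end and WT_m3 (33) and WT_m4 (28.2) at the other. Genes of the olfactory sensory neuron (Omp, S100a5) and of vessels (Rgs5, Adgrf5, Slco1a4) led the end of WT_f1 and WT_f2, and Hspa1b, Hspa1a, Cdhr1 and Reln led the opposite end. On the second component WT_m2 (39.3) and WT_m1 (20.5) lay opposite WT_f4 (-22.2) and WT_m3 (-19.2). Hspa1b, Cxcl9 and Hspa1a led the side of WT_m2, and Mki67 led the other side.

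Scores of lists moved together in a few groups. The endothelial and mural scores had r = 0.981 (0.934 with the sex means removed, 0.954 without WT_f1 and WT_f2), and the astrocyte and endothelial scores r = 0.957 (0.948 and 0.823). The astrocyte score and that of the olfactory ensheathing cell list had r = 0.96 (0.923 and 0.818). The neuron and inhibitory neuron scores had r = 0.858. Among microglial lists the receptors moved with the homeostatic genes (r = 0.804, 0.81 and 0.892) and with the lysosome genes (r = 0.83). The immediate early and early inflammatory scores had r = 0.79 (0.68 and 0.978). The immediate early score had r = 0.805 with the endothelial score over all libraries and 0.917 without WT_f1 and WT_f2, but -0.718 once the sex means were removed.

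Single genes were followed through the 5 genes of highest r among 8661 others at 10 CPM or more. For Fos these were Fosb (r = 0.995), Dusp1, a MAP kinase phosphatase (0.995), Klf4 (0.984), the endothelial receptor gene Adgrf5 (0.978) and Btg1 (0.978), and all 5 stayed at 0.885 or more with the sex means removed and 0.938 or more without WT_f1 and WT_f2. For Hspa1b they included Hspa1a (0.989), Amdhd2, Naa40 and Disp2 (0.955). Hspa1a stayed at 0.988 without WT_f1 and WT_f2, while Amdhd2 came to 0.821 and Disp2 to -0.153. For P2ry12 they were Etv1 (0.953), Nmi, Dhdds, Dr1 and Ugp2 (0.94), and for Pecam1, an adhesion molecule of endothelium and leukocytes, Selenow (0.978), Tra2b, Etf1, Eif1 and Nrbp1 (0.961). Those of Syt1 included Ankrd33b (0.983), Atrnl1, Nalf1 and Fam219a (0.968). Hbb-bs was to be followed too but was not among the kept genes.

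Female and male libraries differed in a small share of the genes, most of them higher in females. The comparison used edgeR's quasi-likelihood test on all 18150 genes, and calls needed a false discovery rate (FDR, by Benjamini and Hochberg) under 0.1 and a log2 fold change beyond 0.5 in either direction. It called 157 genes (0.865% of those tested), 147 higher in females (0.81%) and 10 higher in males (0.0551%), and 1858 genes had an unadjusted p under 0.05. For 730 genes (4.02%) all 4 female values lay above all 4 male values, and for 306 genes (1.69%) all lay below. The median log2 fold change of all genes was -0.0113. Without WT_f1 and WT_f2, which leaves 2 females, 65 genes were called (0.358%), 60 of them higher in females (0.331%). 46 genes were called in both fits, and all 157 kept their direction. The count depended on single libraries: it was 58 to 75 without WT_f1 (58), WT_f2 (67) or any 1 male, 216 without WT_f3 and 454 without WT_f4. Age, genotype and isolation method were shared by the sexes, and the dates of isolation and sequencing are not given in the sources used here, so sex and any such batch cannot be told apart.

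Immediate early genes accounted for part of the difference. Of the 26 genes 17 were called higher in females (background 0.81%) and none lower, with a median log2 fold change of 0.66 over the list. For 18 of them all females lay above all males (background 4.02%). Atf3, a stress-induced transcription factor, measured 856.2, 1017, 862.2 and 875.7 CPM in females and 428.3, 418, 424.7 and 435.5 CPM in males, a log2 fold change of 1.081 (SE 0.0678, edgeR FDR 6.28e-06) that was 1.019 without WT_f1 and WT_f2. Ier2, another immediate early gene, measured 377, 349.8, 328.3 and 293.2 CPM in females and 167.8, 178, 180.4 and 201.6 CPM in males (log2 fold change 0.89, SE 0.0845, edgeR FDR 0.00043). The largest log2 fold changes of the list were those of Fos (1.68, SE 0.229, edgeR FDR 0.00817) and Fosb (1.574, SE 0.219, edgeR FDR 0.00856). Without WT_f1 and WT_f2 they came to 1.11 and 1.052 and were still called. In that fit 15 genes of the list were called (background 0.331%) and its median was 0.69. Egr1 (0.876) was called over all libraries but not without these 2 (0.709, edgeR FDR 0.102). The same held for Zfp36 (0.587, edgeR FDR 0.137), Klf2 (0.632, edgeR FDR 0.759) and Klf6 (0.486, edgeR FDR 0.495), with values from the smaller fit. Nr4a1 was not called over all libraries (0.293, edgeR FDR 0.814) and was called without WT_f1 and WT_f2 (0.856). Ier3, Ier5, Nr4a2, Nr4a3, Arc, Npas4, Rhob and Gadd45b were not called over all libraries either. Of these, Ier3 was called without WT_f1 and WT_f2 (0.752, edgeR FDR 0.00519).

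Inflammatory regulators followed in part. Of the 26 early inflammatory genes 6 were called higher in females (background 0.81%), namely Nfkbiz, Socs3, Nlrp3, Il1a, Tnfaip3 and Ccl7. The list's median was 0.41. Nfkbiz, a nuclear co-activator of NF-kB targets, measured 647.9, 636.6, 683.7 and 588 CPM in females and 346.9, 347.8, 366.4 and 372.3 CPM in males (log2 fold change 0.835, SE 0.0632, edgeR FDR 4.53e-05). Socs3, a feedback inhibitor of cytokine receptors, measured 459, 534.6, 426.3 and 411.8 CPM against 241, 229.8, 233.4 and 264.3 CPM (0.919, SE 0.0854, edgeR FDR 0.000386). Nlrp3, the inflammasome sensor, measured 222, 169.7, 189.8 and 199.7 CPM against 106.9, 109.5, 113.8 and 119.6 CPM (0.798, SE 0.0809, edgeR FDR 0.000792). The 4 females lay above the 4 males for all 3 genes. With WT_f1 and WT_f2 left out, 14 genes of the list were called (background 0.331%), Ccl7 (0.837, edgeR FDR 0.116) no longer among them. The list's median in that fit was 0.69, with Tnf at 1.012 and Cd83 at 0.686. Over all libraries Tnf and Cd83 had been at 0.571 (edgeR FDR 0.448) and 0.158 (edgeR FDR 0.903).

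Vessel genes also differed between the sexes, and the number of calls changed with the libraries in the fit while the direction did not. The median log2 fold change of the endothelial list was 0.82 to 1.69 over 19 settings, the main one included. Of 18 endothelial genes 10 were called higher in females (background 0.81%) and all 18 had a log2 fold change above 0 (median 1.49). Of 14 mural and fibroblast genes 4 were called higher in females (median 1.01). Rgs5, a regulator of G proteins in pericytes, measured 54.86, 49.25, 25.77 and 18.95 CPM in females and 10.35, 8.936, 7.544 and 13.22 CPM in males (log2 fold change 1.896, SE 0.309, edgeR FDR 0.0186). Flt1, a VEGF receptor, measured 45.26, 56.82, 28.06 and 18.44 CPM against 14.39, 9.103, 15.74 and 14.03 CPM (1.492, SE 0.299, edgeR FDR 0.0568). WT_f1 and WT_f2 were highest for both, but WT_f3 and WT_f4 also lay above every male. Without WT_f1 and WT_f2 (background 0.331%) 1 endothelial gene was called (median 0.82) and 1 mural gene, Rgs5 (1.157). Flt1 was not called in that fit (0.817, edgeR FDR 0.363). All 18 endothelial and all 14 mural genes still had a log2 fold change above 0. Leaving out WT_f1, WT_f2 or any 1 male likewise left 1 or 2 endothelial genes and 1 or 2 mural genes called, while without WT_f3 or WT_f4 the counts were 10 and 12 endothelial and 4 and 8 mural genes. The summed level of the endothelial list was 362.5 to 581.5 CPM in females and 320.9 to 340.3 CPM in males, and that of the mural list 79.07 to 152.4 CPM against 42.28 to 61.08 CPM. These vessel genes and the immediate early genes were higher in the same 4 libraries, and the part of vessel cells in the immediate early values was not tested.

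**Figure D5:**
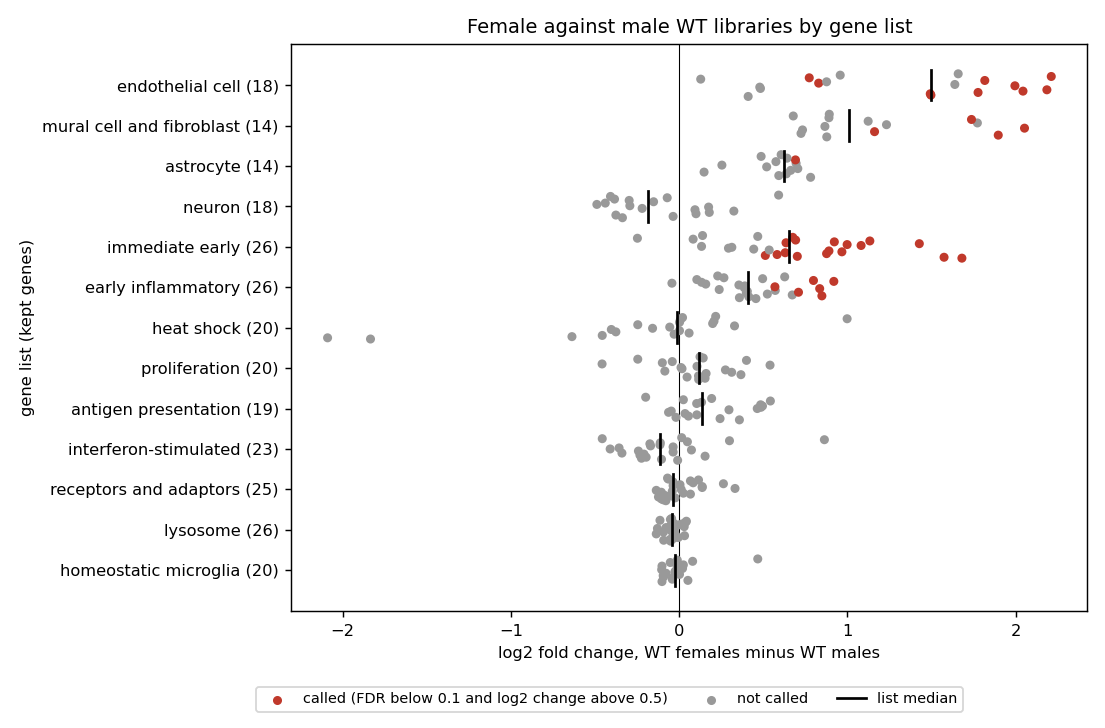
Log2 fold change of female against male WT libraries for each kept gene of 13 lists (1 point per gene; red, called; grey, not called; vertical bar, list median). Immediate early (17 of 26), endothelial (10 of 18), early inflammatory (6 of 26) and mural genes (4 of 14) hold all called points but that of the astrocyte gene Clu, and the homeostatic and lysosome lists lie around 0. Of all tested genes 0.81% were called higher in females.

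Genes that define the cells held no call between the sexes. Only 0.865% of all tested genes were called, so most lists as short as these would hold none. None of the 20 homeostatic genes (median log2 fold change -0.02), 26 lysosome genes (-0.04), 25 receptors (-0.04), 14 complement genes, 24 engulfment genes, 15 transcription factors, 23 interferon-stimulated genes (-0.11), 19 antigen presentation genes (0.13), 20 proliferation genes, 18 neuron genes (-0.19) and 20 heat shock genes (-0.01) was called. The same held for the lists of disease-associated microglia (-0.01), border macrophages (0.13), circadian clock, monocytes, neutrophils, lymphocytes, red blood cells, inhibitory (-0.23) and projection neurons (-0.25), neuroblasts, oligodendrocytes (0.31) and their precursors, ensheathing cells (0.53) and ependymal and choroid cells. The medians without WT_f1 and WT_f2 were -0.06 for neurons, -0.11 for inhibitory and -0.16 for projection neurons. They were 0 for oligodendrocytes, 0.29 for ensheathing cells, 0.03 for border macrophages and -0.02 for interferon-stimulated genes. Without WT_f1 and WT_f2 Csf1, a ligand of Csf1r on the list of disease-associated microglia, was called higher in females (0.895, edgeR FDR 0.00256), against 0.627 (edgeR FDR 0.106) over all libraries. Csf1 is also among the 14 early inflammatory genes called in that fit. Of the monocyte list Nr4a1 was called there, which is also an immediate early gene. For P2ry12 the log2 fold change was -0.102 (SE 0.0701, edgeR FDR 0.674) and for Cx3cr1 -0.041 (SE 0.0661, edgeR FDR 0.887). Rhob, a small GTPase counted with the homeostatic and the immediate early genes, lay higher in all 4 females (0.467, SE 0.0943, edgeR FDR 0.0577) but below the fold threshold. Hspa1b lay higher in all 4 males (log2 fold change -2.089, SE 1.02, edgeR FDR 0.514) and was not called. WT_m4 (345.3 CPM) and WT_f4 (344.2 CPM) were nearly equal, and for its copy Hspa1a the sexes overlapped. Without WT_f1 and WT_f2 the value of Hspa1b was -1.119 (edgeR FDR 0.857). All 14 astrocyte genes had a log2 fold change above 0 (median 0.62), of which Clu alone was called (0.691, edgeR FDR 0.0597). In the fit without WT_f1 and WT_f2 the median of that list was 0.22 and Clu was not called (0.428, edgeR FDR 0.307). Of the 29 housekeeping genes 1 was called, and none without WT_f1 and WT_f2.

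Genes of the sex chromosomes made up 14 of the 157 called genes. Of the 10 genes higher in males, 6 lay on the Y chromosome, the protein-coding Ddx3y, Uty, Kdm5d and Eif2s3y and the pseudogenes Gm4017 and Gm18665. The others were the low genes ENSMUSG00000120576, Gm42466, Sag and Gm26608, and neither these 4 (edgeR FDR 0.283 to 0.708) nor Gm4017 (edgeR FDR 0.129) were called without WT_f1 and WT_f2. Kdm6a, a histone demethylase on X that escapes inactivation, measured 70.46, 58.29, 67.16 and 63.66 CPM in females and 37.69, 42.5, 42.09 and 42.88 CPM in males (log2 fold change 0.655, SE 0.0765, edgeR FDR 0.00296), and the X-linked Ddx3x was called too (0.521, edgeR FDR 0.00626), but not without WT_f2 (0.48), without WT_m3 (0.49) or without WT_f1 and WT_f2 together (0.429, edgeR FDR 0.0784). Among the 10 genes of smallest p that were higher in females, those of neither the X chromosome nor the lists were Id2, an inhibitor of helix-loop-helix factors (0.679, edgeR FDR 0.000999), and Ifrd1, a transcriptional co-regulator (0.636, edgeR FDR 0.00361). Of the called genes 125 were protein-coding, 17 lncRNA and 7 TEC.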

How the data were processed

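Gene counts were deposited as 1 table of raw counts with 16 columns, of which the 8 WT columns were used. Per the labels and the study's methods, the authors isolated total RNA from CD11b-selected cells, prepared stranded, ribosomal RNA-depleted libraries (SMART-Seq Stranded), sequenced them in pairs and took gene counts from STAR on a customised mouse genome (the submitters' processing notes name GRCm39 and mm39); the strand column used is not given in the sources used here. The count columns were mapped to samples by their titles.

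Genes were kept as in the study's filter, applied to the 8 WT libraries: 5 counts in 4 of them. TMM factors, CPM, log2 CPM (prior count 2) and quasi-likelihood tests of females against males came from edgeR 4.0.16 in R 4.3.3, checked on simulated counts before use. The alternatives used limma 3.58.1 and DESeq2 1.42.0. Gene class, position and exon length came from a GENCODE annotation of GRCm39, which matched 17813 of the kept genes (98.14%). The spread was set against a lowess trend (span 0.3), and promoters are genome sequence of GRCm39.

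Named genes were the members of 32 gene lists, the 10 highest in CPM, the 15 highest per kb, the 15 widest and 15 tightest at 10 CPM or more, the 10 called genes of smallest p in each direction and the 5 best partners of 6 anchor genes. The members and lists were chosen with earlier results of these data known. Abundance, spread and co-variation carry no test. The study's form speaks of technical replicates, but the table has 1 column per library. No 2 libraries held identical counts. Some genes that this rule names are not reported here.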

Additional observations from a re-analysis of the deposited data

Results flagged for a closer look

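In 18 of 219 groups of 4 libraries (8.22%) 1 library lay apart from the other 3 by Dixon's test. Chance gives about 1 in 20 for groups not chosen by their values. Some genes here were named for their spread or calls in these libraries, and some measures overlap, so the shares cannot be compared. WT_m3 held 7.96% nuclear ribosomal RNA (2.056% to 2.781% in the other males), 72.78% protein-coding counts (78.41% to 78.96%), 0.178% snoRNA (0.09334% to 0.1074%) and 79280 CPM of Rn18s-rs5 (19740 to 27860). WT_f2 had counts in 23650 genes (25550 to 25890 in the other females) and the highest Atf3 at 1017 CPM (856.2 to 875.7), which still left every female above every male.

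WT_m2 was apart for Irf7 with 25.47 CPM (7.151 to 9.294 in the other males), C3 with 68.81 CPM (10.62 to 14.76), C4b with 91.7 CPM (38.07 to 46.86), Pecam1 with 29.77 CPM (27.25 to 27.68) and Syt1 with 64.56 CPM (78.07 to 79). WT_m1 was apart for Omp with 7.32 CPM (2.905 to 3.574), S100a5, another gene of olfactory sensory neurons, with 9.423 CPM (2.805 to 3.574) and Kdm6a with 37.69 CPM (42.09 to 42.88). WT_f4 had a lysosome score of 8.562 (8.607 to 8.612 in the other females) and a monocyte score of 1.628 (1.297 to 1.346). WT_m4 had 143.2 CPM of Zmynd11 (147.8 to 148.5), and WT_f3 had 0.06946 CPM of Uty, which is 1 count, where the other females had 0.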

How the results depend on the processing

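The count of 157 genes that differed between the sexes was 318 with DESeq2, 104 with limma voom, 750 with no filter beyond 1 count, 103 with at least 10 counts in all 8 libraries, 68 at an FDR of 0.05, 65 without WT_f1 and WT_f2 and 58 to 454 when single libraries were left out. The share higher in females was 93.6%, but 68.8% with no filter and 76.7% without WT_f4. The immediate early list kept 13 to 19 called genes in all 18 settings. With limma voom 4 and at an FDR of 0.05 3 endothelial genes were called in place of 10. C3 and C4b were called higher in females without WT_m2. The 10 highest genes held 7.064% of the counts outside ribosomal RNA and 23.02% to 23.81% with single libraries left out. The median SD of 0.24 became 0.226 with a prior count of 5, 0.227 within sex, 0.171 with the stricter filter, 0.221 without WT_f1 and WT_f2 and 0.233 to 0.243 with single libraries left out. The number of lists with a median r above 0.5 was 13 to 16. No called value changed sign in these settings. For values with no test the limit was the SD over libraries or the jackknife error. The cause of these shifts was not tested. Leaving out WT_f1 and WT_f2 together was chosen after seeing the data.

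With a replicate block 228 genes were called, 147 of them among the 157. Deviations of same-numbered females and males correlated with r of -0.041, 0.13, 0.08 and 0.14, so the numbers were not taken to pair the libraries.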
